A study of Lachancea kluyveri with 16 samples.

Results

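The genes nearest to the 16 ends of the 8 chromosomes of the budding yeast Lachancea kluyveri were followed here. Locus tags of this species carry a chromosome letter, A to H, and a number. The 15 lowest and the 15 highest tags with a probe were taken on each chromosome, as its left and its right end, and a tag is given below by its place counted from its end. This gave 240 genes. After 7 named genes of sugar, glycerol, amino acid and carbon use were set aside, 6 of which lay within these tags, 234 members remained of 5316 genes with a probe. The tags were taken by number alone, while the 7 genes were set aside by name, with earlier results of these data known. Positions are tag order, since no genome was used. A study of the transcription factor Sef1 supplied the data, as transcript levels on 16 single-colour Agilent arrays with 1 culture each.

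The strain SEF1-VP16 was made in the wild type strain JYL1897 (WT), which is MATa ura3, by fusing the VP16 activation domain to Sef1 at its own locus, and both strains share this background. It is 1 strain, so a change particular to it and an effect of the fusion cannot be told apart. SEF1-VP16 and WT were each grown in media labelled YPGly, a rich medium with glycerol, and YPD, a rich medium with glucose, and each combination of strain and medium had 4 cultures. These were started from overnight cultures at 28 °C, at an optical density of 0.2, and were harvested after 5.5 h of growth at 30 °C. Labels say no more of how the cultures were made, so the p-values measure the spread between these cultures, and the number of arrays limits the precision.

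Chromosome ends of budding yeasts are a particular place for genes. Telomeric silencing proteins can lower transcription next to the telomere in Saccharomyces cerevisiae, and families of transporters, flocculins and enzymes for sugars and other nutrients gather there. Such genes are often called on only in some media, vary in copy number between strains, and have near-identical relatives at other ends. Sef1 is a zinc cluster transcription factor, and fusing VP16 to such a factor generally makes it a stronger activator. Roles given below are those of the S. cerevisiae gene named in the study's annotation, unless another species is named.

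Some facts of the series bear on every result. The share of gene probes well above background lay between 94.5% and 99.95% of 10620 on the 16 arrays. SEF1 itself was lower in SEF1-VP16 by less than 1.5-fold and so was not called, at log2 changes of -0.36 in arrays labelled YPGly and -0.39 in those labelled YPD (limma adjusted p 0.0446 and 0.0338). AFT1, the iron regulator, was called higher in both, by 0.86 and 0.70, which is 1.81-fold and 1.63-fold. The study prints the same folds the other way round, 1.81 in YPD and 1.63 in YPGly. It also lists SAKL0A10538g as higher in YPGly and SAKL0H25960g as higher in YPD. Here each was called in the medium with the opposite label. Of 8 genes of non-fermentable carbon use, 7 were called lower where labelled YPGly in both strains, which goes against the labelled carbon source. Media are given as labelled throughout, and a medium named here may be the opposite medium in the study. Whether labels were exchanged was not tested. All arrays labelled YPGly lay on one slide and all labelled YPD on another, so slide and medium cannot be told apart, and SEF1-VP16 and WT lay in different array rows of both slides.

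The chromosome ends held more dim genes than the rest of the genome. Genes were tested when at least 1 group had all 4 arrays well above background for the probe, and 216 members passed while 18 (7.69%) did not, against 31 of 5082 other genes (0.61%). Among the 5 outermost tags of each end 11.7% failed, among tags 6 to 10 it was 5.06%, among tags 11 to 15 it was 6.41%, and beyond tag 50 it was 0.577%. The 18 dim members had a probe well above background on 2 to 7 of the 16 arrays. WT YPD replicate 3, the array with the most probes above background, saw all 18, and WT YPD replicate 4, the array with the fewest, saw none. They included SAKL0F00110g, the outermost gene of chromosome F on the left and a relative of the siderophore transporter gene ARN2, and SAKL0B00440g, a relative of the cell surface gene ZPS1. No level or change is given for them.

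Calls follow 1 rule throughout, an adjusted p of 0.05 or less in a limma fit over all 5267 genes tested, with a change of at least 1.5-fold. Between strains, 14 members (6.48%) were called where labelled YPGly, 7 in each direction, against 2.3% of all genes tested, 1.61% higher and 0.684% lower in SEF1-VP16. Where labelled YPD it was 13 members (6.02%), 5 higher and 8 lower, against 2.13% of all genes, 1.48% higher and 0.646% lower. Between media, 113 members (52.3%) were called in SEF1-VP16, 50 higher and 63 lower where labelled YPGly, against 46.4% of all genes, 26.6% higher and 19.9% lower. In WT it was 128 members (59.3%), 57 higher and 71 lower, against 47.9% of all genes, 27.4% higher and 20.5% lower. The share called was thus above the background in each of these comparisons, and in both media comparisons the excess lay among members that were lower. These shares are descriptions, and no test of the members as a list was made. A dim gene passes the filter only through the group in which it is high, so counts over tested members favour change. Among the 188 members with a probe well above background on all 16 arrays, a refit called 9 (4.79%) and 11 (5.85%) between strains where labelled YPGly and YPD, and 95 (50.5%) and 106 (56.4%) between media in SEF1-VP16 and WT. The shares over all 5050 such genes were 2.16%, 2.08%, 45.9% and 47.1%.

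Sizes of change over tested members were larger at the ends too, though the filter on dim genes favours large changes here as well. The median absolute log2 change between media was 0.65 in SEF1-VP16 and 0.72 in WT over members, against 0.54 and 0.55 over all other genes. Between strains it was 0.16 where labelled YPGly and 0.19 where labelled YPD over members, against 0.14 and 0.14. Members called at least 4-fold lower where labelled YPGly in WT numbered 24 (11.1%), beside 4.18% of all genes, and 7 (3.24%) were at least 4-fold higher, beside 1.96%. In SEF1-VP16 the counts were 22 and 7, beside 3.87% and 1.84% of all genes. The residual SD of a member had a median of 0.187 on the log2 scale, against 0.171 for other genes, so members were also somewhat noisier. The signed medians were small. They were -0.06 and -0.08 between strains where labelled YPGly and YPD, and -0.01 and -0.05 between media in SEF1-VP16 and WT, against 0.01, 0.02, 0.13 and 0.16 over other genes.

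Shares called were highest in the 5 outermost tags, though between strains they depended on dim probes and on the setting. Of the 68 members tested there, 11.8% were called between strains in each medium, and 69.1% and 70.6% between media in SEF1-VP16 and WT. Of the 148 members at tags 6 to 15, 4.05% were called between strains where labelled YPGly and 3.38% where labelled YPD. Between media it was 44.6% in SEF1-VP16, under the 46.4% of all genes, and 54.1% in WT, against 47.9%. At tags 6 to 10 it was 52% in SEF1-VP16 and 64% in WT. At tags 11 to 15 it was 37% and 43.8%, both under the share of all genes. At tags 16 to 20 the share between media in WT was 44.2%, and beyond tag 50 it was 47.3%. Members at least 4-fold lower where labelled YPGly in WT made up 25% of the 5 outermost tags and 4.73% of the other 10. Some of these falls passed the filter only through the arrays labelled YPD. In the refit on genes above background on all 16 arrays, 51 outermost members remained, and 8 of them (15.7%) were at least 4-fold lower in WT, against 4.38% at the other 10 tags and 3.58% of all such genes. Between media 70.6% of the 51 were called in SEF1-VP16 and 68.6% in WT, against 45.9% and 47.1% of all such genes.

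Between strains where labelled YPGly, 5 of the 8 outermost calls were falls, and 0 of these 5 had a probe above background on all SEF1-VP16 arrays labelled YPGly. In the refit 3 of 51 (5.88%) were called, all higher. Over the alternatives the outermost count lay between 3 and 11 where labelled YPGly, with 3 under normexp background correction, which reversed all 5 falls. Where labelled YPD 6 of 51 (11.8%) were called in the refit, and the count lay between 0 and 11, with 0 by the methods' t-test once its p-values were adjusted by Benjamini-Hochberg. Without 1 array it lay between 5 and 9 in each, with 5 without SEF1-VP16 YPGly replicate 3, WT YPGly replicate 1 or WT YPGly replicate 3, and 5 without WT YPD replicate 3.

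**Figure D1:**
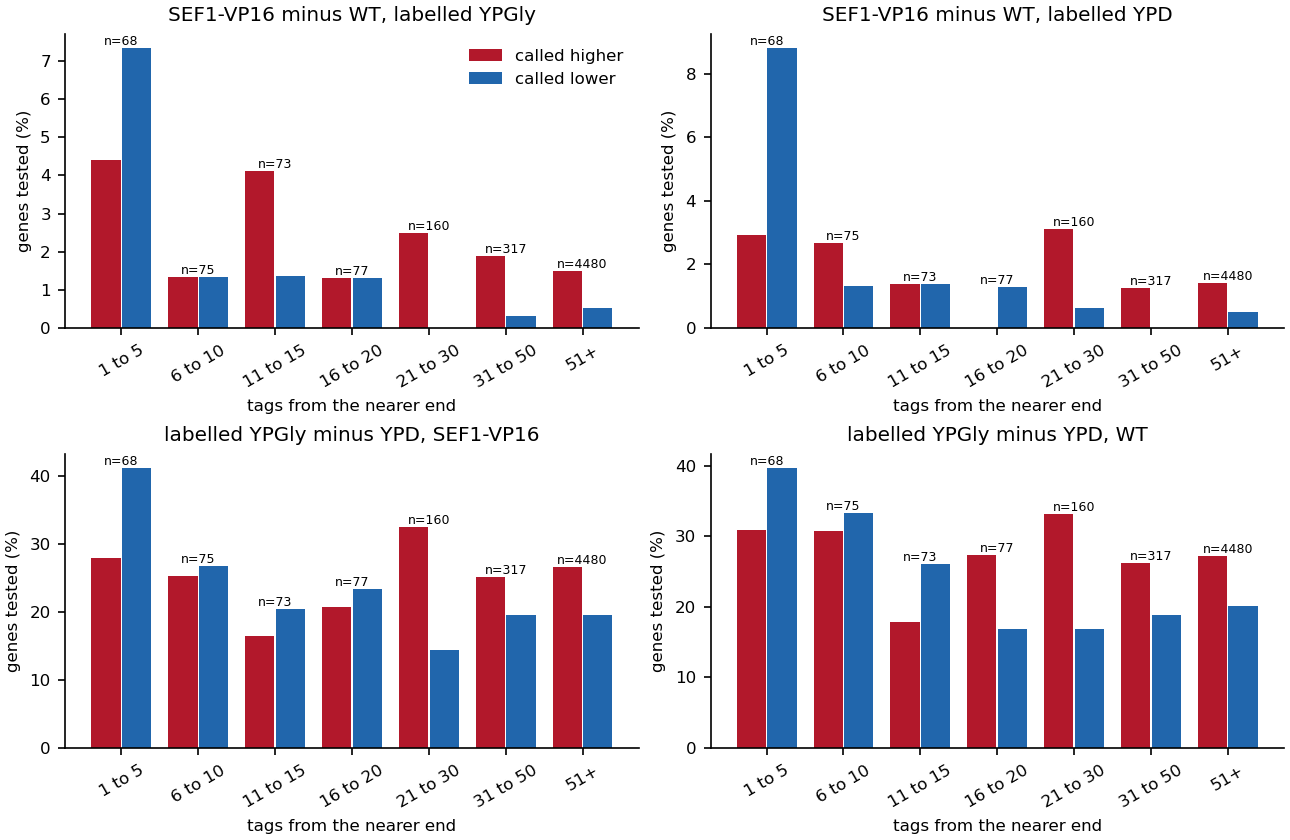
Share of genes tested (y axis, %) that were called higher (red) or lower (blue) in each of 4 comparisons, by the number of tags from the nearer chromosome end (x axis), over all chromosomes after the set-aside genes were left out, with the number of genes tested above each pair of bars. Blue bars are tallest at tags 1 to 5 in all 4 panels, at 7.35% and 8.82% between strains where labelled YPGly and YPD, and at 41.2% and 39.7% between media in SEF1-VP16 and WT. The 7.35% is 5 genes, none above background on all 4 SEF1-VP16 arrays labelled YPGly, and all 5 changed sign under normexp background correction.

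Groups that did not overlap were counted as well. All 4 SEF1-VP16 arrays lay on one side of all 4 WT arrays for 70 members (32.4%) where labelled YPGly, beside 25.2% of all genes, and for 34 (15.7%) where labelled YPD, beside 7.99%. Between media it was 151 members (69.9%) in each strain, beside 67.3% of all genes in SEF1-VP16, which is close to the members' share, and 62.1% in WT.

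Calls between strains were spread over 11 of the 16 ends. The left and right ends of C, the left end of D and the right ends of E and F had none. The right ends of A and B had 4 members each, which no other end reached. Calls between media in WT were found at every end, from 5 to 12 of the members tested, and the left end of E had the most, 12 of 14.

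**Figure D2:**
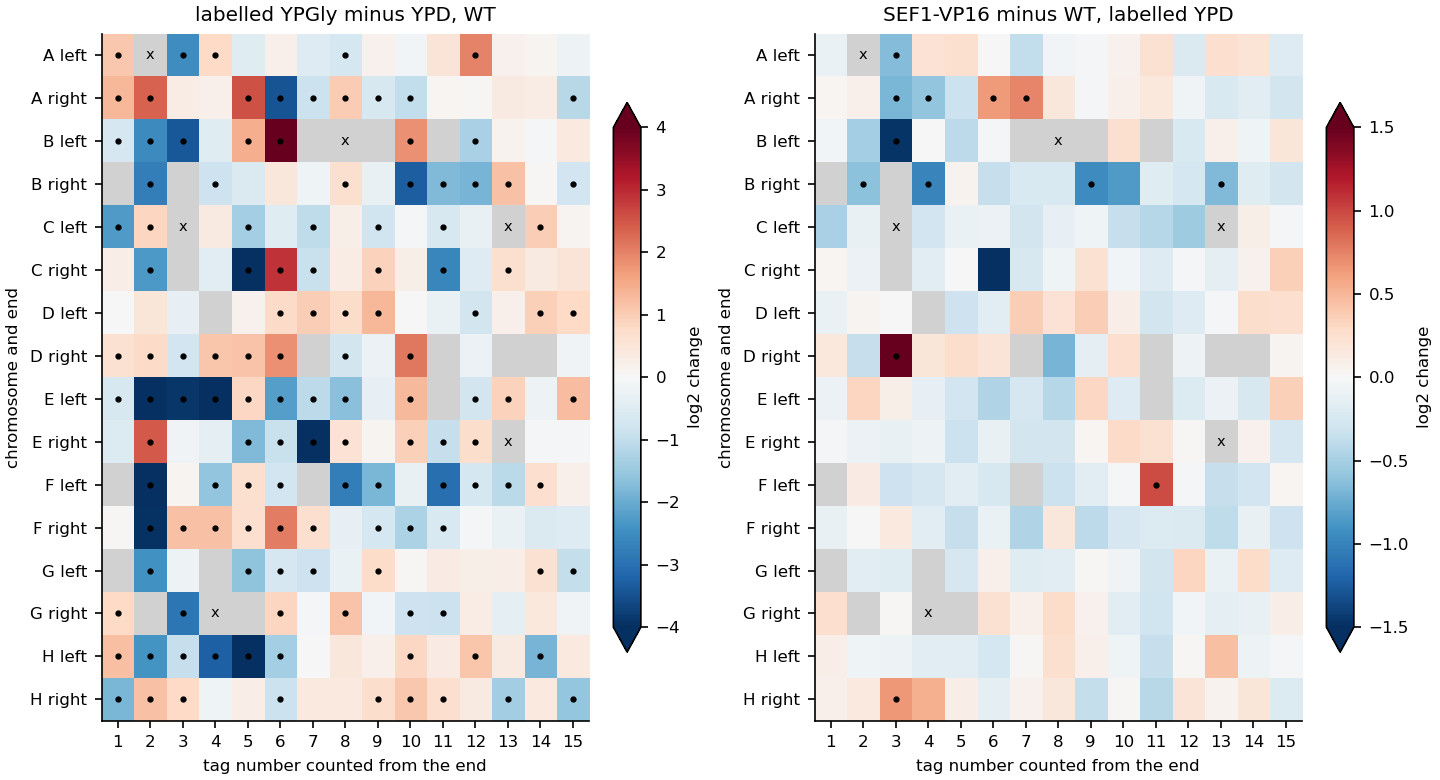
Log2 change of each member, with the 16 chromosome ends as rows and tags counted from the end as columns, between labelled media in WT (left panel, YPGly minus YPD) and between strains where labelled YPD (right panel, SEF1-VP16 minus WT). Red is higher, blue lower, colours stop at the limits of each scale, a dot marks a called member, grey a tag not tested and x a gene set aside. The left end of E and the left end of H are mostly blue near the end in the left panel, and the 13 dots of the right panel are scattered over 7 ends.

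The largest rise between strains belonged to SAKL0D15334g (right end of D, tag 3), a gene described as without similarity to others and present on the study's list of genes bound by Sef1. Where labelled YPGly its log2 values, relative to the 75th percentile of the array, were -3.87, -3.99, -3.89 and -3.72 in SEF1-VP16, against -5.02, -4.51, -5.39 and -4.91 in WT. Where labelled YPD they were -2.54, -2.31, -1.87 and -2.71 in SEF1-VP16, against -4.49, -3.94, -4.60 and -3.80 in WT. All SEF1-VP16 arrays lay above all WT arrays in both media. The rise was 2.13-fold where labelled YPGly (log2 1.09, SE 0.21, limma adjusted p 0.00549) and 3.61-fold where labelled YPD (log2 1.85, SE 0.21, limma adjusted p 4.63e-05). The difference between these rises did not pass the test (interaction -0.76, SE 0.30, limma adjusted p 0.239).

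SAKL0A10538g, a conserved hypothetical gene at tag 7 of the right end of A and also on the list of bound genes, lay on opposite sides of WT in the media. Where labelled YPGly its log2 values were -0.55, -0.59, -0.75 and -0.82 in SEF1-VP16, against -0.29, -0.38, -0.28 and -0.44 in WT. Where labelled YPD they were 1.28, 1.38, 1.22 and 1.06 in SEF1-VP16, against 0.42, 0.62, 0.50 and 0.48 in WT, a rise of 1.66-fold (log2 0.73, SE 0.09, limma adjusted p 8.42e-05). Groups were apart in both media, but the difference where labelled YPGly, -0.33, was under 1.5-fold and not called. The difference between the strain effects was -1.06 (SE 0.12, limma adjusted p 0.00046). Its neighbour SAKL0A10560g (tag 6), weakly similar to the oxidoreductase gene YNL134C, was higher in SEF1-VP16 in both media, by 0.62 (SE 0.13) where labelled YPGly and 0.64 (SE 0.13) where labelled YPD, with limma adjusted p of 0.0094 and 0.00844.

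A pair of other members completed the rises where labelled YPD. SAKL0F00396g, similar to INO1, which makes inositol phosphate for lipid synthesis, had log2 values of -0.12, -0.90, -0.34 and -1.38 in SEF1-VP16, against -1.69, -1.15, -1.95 and -1.84 in WT, and these overlapped. Its fitted rise was 0.97 (SE 0.24, limma adjusted p 0.0281). SAKL0H26202g, weakly similar to the ferroxidase gene FET3 of high-affinity iron uptake, rose by 0.65 (SE 0.15, limma adjusted p 0.0231), again with overlapping groups. Neither was called where labelled YPGly, at -0.13 and -0.12.

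Falls where labelled YPD were more frequent than rises, and 4 of the 8 lay on the right end of B. SAKL0B12738g, similar to MCH4 of the monocarboxylate permease family, had log2 values of -3.27, -3.43, -3.42 and -3.93 in SEF1-VP16, against -2.21, -2.75, -2.73 and -2.41 in WT. The fall was 1.98-fold (log2 -0.99, SE 0.14, limma adjusted p 0.000493). SAKL0B12628g, similar to the multidrug transporter gene FLR1, had -1.97, -1.93, -1.98 and -2.21 in SEF1-VP16, against -0.89, -1.10, -1.35 and -0.98 in WT, a fall of 1.92-fold (log2 -0.94, SE 0.10, limma adjusted p 2.86e-05). Where labelled YPGly neither was called, at changes of -0.01 and 0.01 (SE 0.14 and 0.10), and for both the strain effect differed between media (interactions of 0.97 and 0.95, limma adjusted p 0.0259 and 0.00394).

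SAKL0B12540g, highly similar to the hexose transporter gene HXT6, was lower in SEF1-VP16 in both media. Where labelled YPGly its log2 values were -2.11, -1.88, -2.23 and -2.22 in SEF1-VP16, against -1.08, -1.25, -0.83 and -1.36 in WT, a fall of 1.97-fold (log2 -0.98, SE 0.18, limma adjusted p 0.00455). Where labelled YPD they were -3.25, -2.92, -3.17 and -2.49 in SEF1-VP16, against -1.86, -2.52, -2.64 and -2.16 in WT, which overlapped. That fall of 0.66 only just passed (SE 0.18, limma adjusted p 0.0466) and was lost in 12 of 16 fits that left out 1 array. The fourth member of this end, SAKL0B12804g, is dim and is described with the dim genes below.

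The largest called fall between strains was that of SAKL0B00154g, a conserved hypothetical gene at tag 3 of the left end of B. Where labelled YPD its log2 values were -5.83, -4.81, -5.39 and -4.53 in SEF1-VP16, where its probe was well above background on 3 of 4 arrays, against -3.45, -3.96, -3.73 and -3.54 in WT. The groups did not overlap, and the fall was 2.77-fold (log2 -1.47, SE 0.22, limma adjusted p 0.000659). Other falls were those of SAKL0A10626g, similar to SRY1 of hydroxyaspartate breakdown (-0.68, SE 0.10), SAKL0A00176g, similar to the uncharacterised gene YKL070W (-0.66, SE 0.11), and SAKL0A10604g, which has no symbol (-0.59, SE 0.15). Their limma adjusted p were 0.000701, 0.0016 and 0.0297. The SRY1 relative had 0.95, 0.41, 0.79 and 0.78 in SEF1-VP16, against 1.45, 1.40, 1.41 and 1.40 in WT. Where labelled YPGly the change was 0.13, not called and with 1 outlier spot left out, and the strain effect differed between media by 0.81 (limma adjusted p 0.0134).

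Where labelled YPGly 7 members were called higher in SEF1-VP16, with SAKL0D15334g and SAKL0A10560g among them. SAKL0A00132g, the outermost gene of the left end of A and similar to YMC1, a mitochondrial carrier gene, had log2 values of -0.41, -0.43, -0.36 and -0.43 in SEF1-VP16, against -1.24, -1.13, -1.21 and -1.08 in WT. The rise was 1.69-fold (log2 0.76, SE 0.15, limma adjusted p 0.00656), and where labelled YPD the change was -0.10. Its relative SAKL0A10670g, similar to YMC2, is the outermost gene of the right end of A and stood at 0.41 (limma adjusted p 0.104), not called.

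SAKL0E00660g, similar to DIM1, which methylates ribosomal RNA, had log2 values of -0.82, -0.74, -0.64 and -0.54 in SEF1-VP16 where labelled YPGly, against -1.35, -1.26, -1.43 and -1.18 in WT. That rise of 1.54-fold (log2 0.62, SE 0.09, limma adjusted p 0.00046) differed from the change of -0.21 where labelled YPD (interaction 0.83, limma adjusted p 0.00355). SAKL0A00220g, similar to NOG2 of large subunit export, rose by 0.62 (SE 0.12) and SAKL0H25960g, highly similar to the ribosomal protein gene RPL8A, by 0.62 (SE 0.15), with limma adjusted p of 0.00623 and 0.0203. SAKL0H00572g, similar to PXR1 of RNA maturation, had a fitted rise of 0.77 (SE 0.22, limma adjusted p 0.0491) with overlapping groups, and lost it in 13 of 16 fits without 1 array. Of the 6 members in the list of ribosome and RNA genes, 2 were called higher here and 0 lower, beside 1.61% and 0.684% of all genes. Their median change was 0.02. The 2 calls, NOG2 and RPL8A, were lost in 2 and 3 of 16 fits without 1 array. DIM1 and PXR1 are not in that list.

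Among the 7 falls where labelled YPGly, only the HXT6 and FUI1 relatives had probes well above background on all 16 arrays. SAKL0F00286g, similar to the uridine permease gene FUI1, had log2 values of -2.21, -1.89, -1.99 and -1.90 in SEF1-VP16, against -1.26, -1.49, -1.06 and -1.17 in WT, a fall of 1.69-fold (log2 -0.75, SE 0.12, limma adjusted p 0.00189). The other 5 lay at tags 2 or 3 of their ends, namely SAKL0B12804g, SAKL0E00154g, SAKL0F00132g, SAKL0G00132g and SAKL0G19866g. Their probes were well above background on 0 of 4 SEF1-VP16 arrays labelled YPGly for 3 of them and on 1 of 4 for the other two. SAKL0E00154g, for example, had log2 values of -8.15, -7.41, -8.13 and -7.50 in SEF1-VP16, against -6.93, -6.89, -6.44 and -7.09 in WT (limma adjusted p 0.0112), with 1 of 4 SEF1-VP16 arrays above background. SAKL0B12804g had -8.68, -8.78, -8.76 and -8.90 in SEF1-VP16, none well above background, against -7.52, -7.66, -7.53 and -7.91 in WT (limma adjusted p 0.000304). SAKL0G00132g averaged -8.87 ± 0.31 in SEF1-VP16 and -7.66 ± 1.04 in WT (SD, n = 4 arrays each, limma adjusted p 0.0486), and its groups did not overlap. SAKL0G19866g averaged -8.79 ± 0.45 in SEF1-VP16 and -8.00 ± 0.22 in WT (SD, n = 4 arrays each, limma adjusted p 0.023), with overlapping groups. No size is given for SAKL0E00154g or SAKL0F00132g, each with a probe above background on 1 of 4 SEF1-VP16 arrays. No fold is given for the other 3. Their WT means did not exceed the lowest signals among probes well above background on the SEF1-VP16 arrays. All 5 changed sign when background was corrected by the normexp method, to between 0.38 and 0.58. Where labelled YPD, SAKL0B12804g was lower in SEF1-VP16 by 0.62 (SE 0.15, limma adjusted p 0.0241), with 3 of 4 SEF1-VP16 arrays above background.

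**Figure D3:**
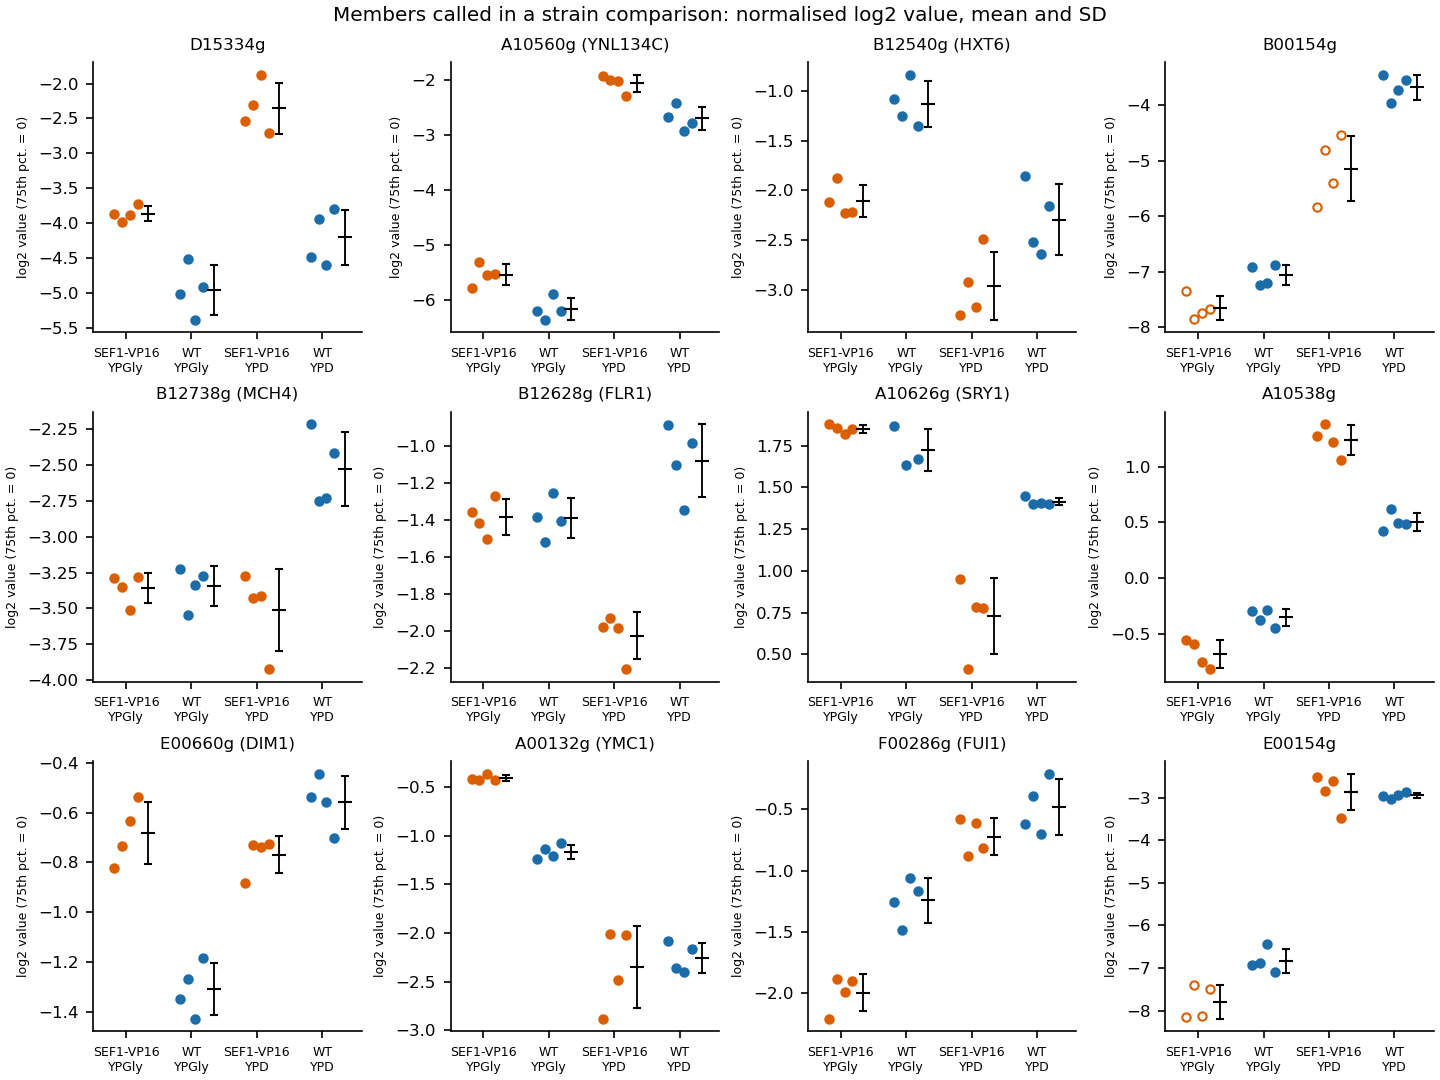
Normalised log2 value of 12 members called between strains (y axis, 75th percentile of the array at 0), in each of 4 arrays of SEF1-VP16 YPGly, WT YPGly, SEF1-VP16 YPD and WT YPD (x axis), with the mean and SD beside the points. Open symbols mark groups with fewer than 4 arrays well above background, an outlier spot is left out, and each panel has its own scale. The SEF1-VP16 points of D15334g lie above the WT points in both media, while those of the MCH4 and FLR1 relatives lie below WT only where labelled YPD.

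In all, 4 members were called between strains in both media, which is 4 of the 14 called where labelled YPGly and 4 of the 13 called where labelled YPD. These were SAKL0D15334g, the YNL134C and HXT6 relatives and SAKL0B12804g, and each kept its direction in this fit. Where labelled YPGly, SAKL0B12804g had 0 of 4 SEF1-VP16 arrays above background and changed sign with normexp. The HXT6 call where labelled YPD was lost in 12 of 16 fits without 1 array. Another 10 were called only where labelled YPGly and 9 only where labelled YPD. A call in one medium only does not show that the strain effect differed. The test of that difference called 7 members (3.24%), 5 higher and 2 lower where labelled YPGly, beside 1.14% of all genes, 0.646% higher and 0.494% lower. Besides the 5 named above, these were SAKL0C00396g, highly similar to the reductase gene OYE2 (0.92, limma adjusted p 0.0361), and SAKL0H26180g, which has no symbol (-0.92, limma adjusted p 0.0281). The OYE2 relative had 2.84, 2.93, 3.02 and 3.15 in SEF1-VP16 where labelled YPGly, against 2.55, 2.56, 2.55 and 2.72 in WT, and 1.98, 2.66, 2.14 and 2.63 in SEF1-VP16 where labelled YPD, against 3.20, 2.73, 2.77 and 2.83 in WT. It was apart in opposite directions.

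The 13 members called where labelled YPD all had a description in the study's tables, although only 111 of 234 members have one. Those tables list genes that were bound or changed in the study, strain comparisons included, so this is how the tables were made and not a finding. Among the 21 members on the list of genes bound by Sef1, 2 were called between strains where labelled YPGly, both higher, and 3 where labelled YPD, 2 higher and 1 lower. Over all 717 bound genes tested the shares were 4.88% and 7.39%. Medians over the bound members were 0.02 and -0.04. Of the 7 tested members of the list of genes induced by low iron, 0 were called between strains by limma in either medium, 2 in each had an unadjusted p under 0.05, and the methods' t-test with its fold threshold called 0. Over all 111 genes tested from that list, 15.3% were called where labelled YPGly and 7.21% where labelled YPD. Both FET4 relatives were among the 7, at 0.38 and 0.36 where labelled YPGly (SE 0.13 and 0.12, limma adjusted p 0.0859 and 0.0755). Between media 3 of the 7 were higher and 0 lower in each strain, 2 of these 3 being the FET4 pair, whose probes cross-hybridise. Over the 111 genes, 25 were higher and 43 lower in SEF1-VP16, and 21 were higher and 45 lower in WT.

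Differences between media reached far larger sizes. The largest fall was that of SAKL0E00132g (left end of E, tag 2), similar to the siderophore transporter gene ARN2. In SEF1-VP16 its log2 values were -6.05, -6.32, -6.13 and -6.23 where labelled YPGly, against 0.15, -0.04, -0.07 and 0.04 where labelled YPD. In WT they were -6.00, -6.06, -6.20 and -6.23, against -0.11, -0.44, -0.47 and -0.20. Expression where labelled YPGly was 73.6-fold lower in SEF1-VP16 (log2 -6.20, SE 0.10, limma adjusted p 2.18e-17) and 56.4-fold lower in WT (log2 -5.82, SE 0.10, limma adjusted p 6.02e-17), and the probe stayed well above background on all 16 arrays.

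SAKL0E15246g (right end of E, tag 7), similar to POT1, the thiolase of fatty acid oxidation, was close to it. In SEF1-VP16 its log2 values were -2.66, -2.11, -2.88 and -2.50 where labelled YPGly, against 3.70, 3.82, 3.54 and 3.17 where labelled YPD. In WT they were -1.84, -2.00, -1.64 and -2.28, against 3.89, 4.10, 3.65 and 3.70. It fell 68.4-fold in SEF1-VP16 and 54.7-fold in WT (SE 0.18 on the log2 scale in each, limma adjusted p 3.14e-14 and 6.52e-14). All 3 members in the list of glycerol and fatty acid use were lower where labelled YPGly in both strains, beside 19.9% of all genes in SEF1-VP16 and 20.5% in WT. The others were SAKL0C13816g, similar to PEX11 of peroxisome division (-2.38 in SEF1-VP16 and -2.62 in WT), and SAKL0H25938g, similar to the glycerol kinase gene GUT1 (-1.90 and -1.54). GUT1 is also one of the 8 carbon use genes by which the labels were checked.

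Other large falls belonged to enzymes and to genes without a name. SAKL0H00374g, weakly similar to the alcohol dehydrogenase gene ADH3, had log2 values of -2.54, -2.41, -2.80 and -2.74 in SEF1-VP16 where labelled YPGly, against 2.53, 2.12, 2.41 and 1.71 where labelled YPD. Its fall was 28.2-fold in SEF1-VP16 and 21.7-fold in WT (limma adjusted p 3.98e-13 and 1.12e-12). The unnamed SAKL0C13970g had -8.75, -8.83, -8.66 and -7.81 in SEF1-VP16 where labelled YPGly, with 1 of 4 arrays above background, against -3.64, -3.44, -3.77 and -2.10 where labelled YPD, and its fitted change was -5.27 in SEF1-VP16 and -5.03 in WT. The YNL134C relative SAKL0A10560g, higher in SEF1-VP16 in both media, was among the large falls as well (-3.48 in SEF1-VP16 and -3.47 in WT, SE 0.13 each). The INO1 relative fell by 4.11 on the log2 scale in SEF1-VP16 and by 3.00 in WT.

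Several falls ended at background and have only a bound in SEF1-VP16. SAKL0F16742g was at least 5.11-fold lower where labelled YPGly, SAKL0G19866g at least 4.21-fold, SAKL0B00154g at least 3.88-fold, SAKL0B12606g at least 3.57-fold, SAKL0G00132g at least 3.45-fold and SAKL0B12804g at least 3.19-fold. Each bound sets the mean of the arrays labelled YPD against, on each array labelled YPGly, the higher of the gene's own signal and the lowest signal among probes well above background. All 6 were called lower in both strains by limma.

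The largest rise was that of SAKL0B00220g (left end of B, tag 6), similar to SUC2, the invertase gene. In SEF1-VP16 its log2 values were -2.21, -1.84, -2.46 and -2.35 where labelled YPGly, against -4.36, -6.50, -6.52 and -7.63 where labelled YPD. In WT they were -0.79, -1.03, -0.67 and -1.04, against -5.80, -6.18, -6.37 and -6.57. It rose 16.5-fold in SEF1-VP16 (log2 4.04, SE 0.45, limma adjusted p 5.87e-07) and 40.7-fold in WT (log2 5.35, SE 0.45, limma adjusted p 2.03e-08), with the probe above background on 2 of 4 SEF1-VP16 and 3 of 4 WT arrays labelled YPD. Where labelled YPGly, all 4 SEF1-VP16 arrays lay below all 4 WT arrays, but the difference of -1.33 did not pass (SE 0.45, limma adjusted p 0.0888).

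All 4 members of sugar transport and use were higher where labelled YPGly in both strains. Besides SUC2 these were the HXT6 relative (0.85 in SEF1-VP16 and 1.16 in WT), SAKL0C00154g, highly similar to KHT2, a hexose transporter gene of Kluyveromyces lactis (0.73 and 0.86), and SAKL0F00462g, highly similar to the hexokinase gene HXK2 (1.06 and 0.67). The list median was 0.95 in SEF1-VP16 and 1.01 in WT, against 0.13 and 0.15 over all genes. Of all genes, 26.6% and 27.4% were higher. These 4 do not stand for the sugar genes at the ends, since 3 of the 4 sugar genes set aside in choosing the members went the other way. The isomaltase relatives SAKL0A00154g (YJL216C, -4.27 in SEF1-VP16 and -2.93 in WT) and SAKL0C00176g (IMA5, -3.99 and -2.77) and the glucose sensor relative SAKL0B00264g (RGT2, -7.48 and -5.88, with the probe above background on 2 of 4 SEF1-VP16 arrays labelled YPGly) were called lower, while the hexose transporter relative SAKL0G19844g (HXT2) was called higher in SEF1-VP16 (1.72) and not called in WT (0.58).

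SAKL0C13926g, similar to the alcohol dehydrogenase gene ADH4, rose with a wide spread. In SEF1-VP16 its log2 values were 4.50, 4.58, 4.44 and 4.93 where labelled YPGly, against -2.02, 1.32, -1.84 and 2.18 where labelled YPD. In WT they were 4.56, 4.44 and 4.30 with 1 value missing, against 2.65, -0.38, 1.81 and 2.06. The arrays labelled YPD thus had SDs of 2.15 in SEF1-VP16 and 1.33 in WT, while those labelled YPGly had 0.22 and 0.13. The rise was 4.70 in SEF1-VP16 (SE 0.81, limma adjusted p 9.07e-05) and 2.90 in WT (SE 0.87, limma adjusted p 0.00783). Its strain difference where labelled YPD, -1.63, was the largest fall among members in size but did not pass (SE 0.81, limma adjusted p 0.27).

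**Figure D4:**
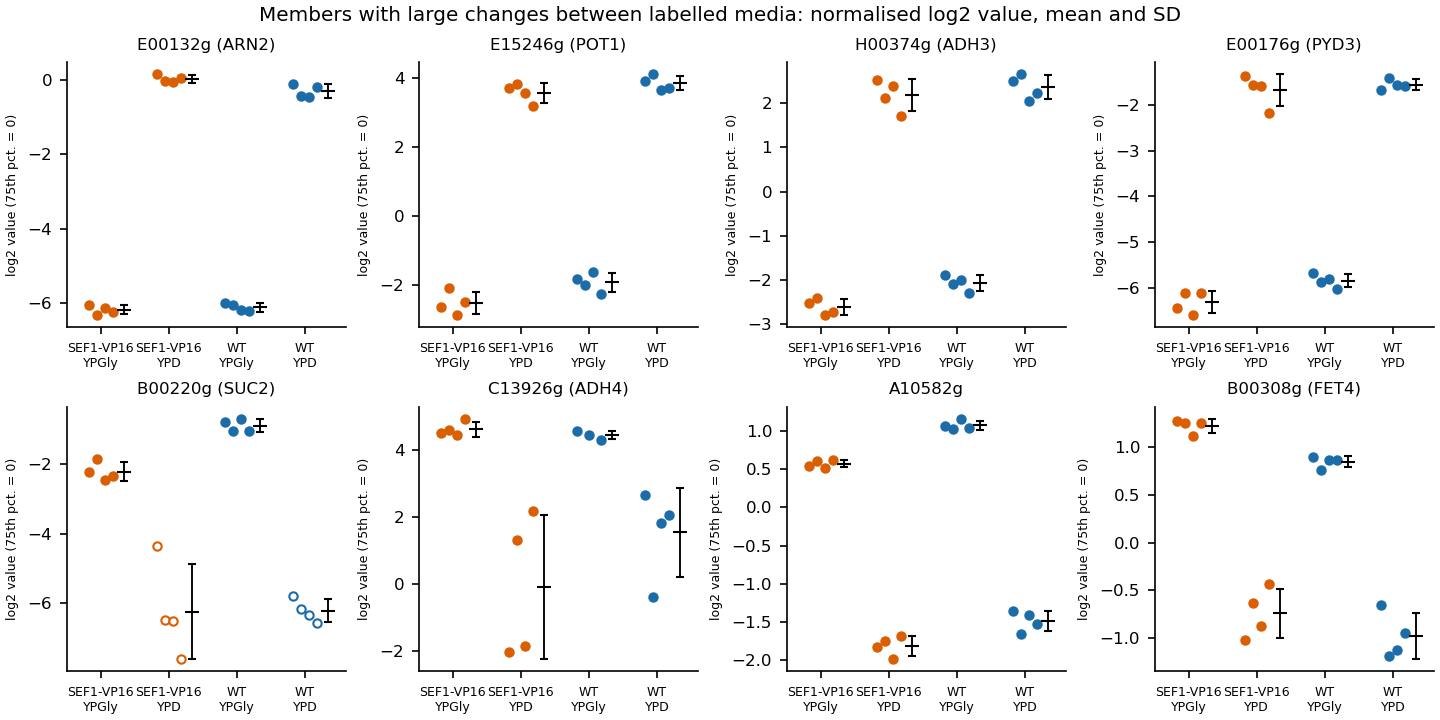
Normalised log2 value of 8 members with large changes between labelled media (y axis, 75th percentile of the array at 0), in each of 4 arrays of SEF1-VP16 YPGly, SEF1-VP16 YPD, WT YPGly and WT YPD (x axis), with the mean and SD beside the points. Open symbols mark groups with fewer than 4 arrays well above background, and each panel has its own scale. The upper row falls where labelled YPGly in both strains, the lower row rises, and only ADH4 has arrays labelled YPD more than 4 units apart within SEF1-VP16.

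Of 5 members tested in the list of metal genes, 2 were higher and 2 lower where labelled YPGly in SEF1-VP16, and 3 were higher and 2 lower in WT, beside 46.4% and 47.9% of all genes called. The rises were the FET4 relatives SAKL0B00308g (1.98 in SEF1-VP16 and 1.84 in WT) and SAKL0H00132g (1.48 and 1.21), which belong to low-affinity iron transport and whose probes cross-hybridise with each other, so that they may report 1 gene, and, called in WT, the FET3 relative (0.04 and 0.80, a difference that did not pass, limma adjusted p 0.0974). The falls were the ARN2 relative and SAKL0C00220g, similar to PUG1 of haem transport (-1.36 and -1.37). SAKL0B00308g had 1.28, 1.26, 1.12 and 1.26 in SEF1-VP16 where labelled YPGly, against -1.02, -0.64, -0.88 and -0.44 where labelled YPD.

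Of 8 tested members of the cell surface list, 4 were higher and 1 lower in SEF1-VP16, and 5 were higher and 0 lower in WT. Shares over all genes were 26.6% higher and 19.9% lower in SEF1-VP16, and 27.4% and 20.5% in WT. SAKL0E15378g, with some similarity to the flocculin gene FLO1, had log2 values of -5.14, -5.21, -5.15 and -5.03 in WT where labelled YPGly, against -7.29, -7.17, -8.24 and -7.62 where labelled YPD, with 3 of 4 of these above background, a fitted rise of 5.45-fold (log2 SE 0.31, limma adjusted p 2.99e-06). In SEF1-VP16 its probe was well above background on 0 of 4 arrays labelled YPD, and it was at least 1.72-fold higher where labelled YPGly. SAKL0D00176g, another FLO1 relative, was lower in SEF1-VP16 (-0.81) and not called in WT (-0.33), a difference that did not pass (limma adjusted p 0.155). The GAS1 relative SAKL0H00528g, whose product remodels wall glucan, was higher in both strains (1.29 and 1.11), as was the SCW4 relative SAKL0H00484g (0.91 and 0.83).

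Permeases were called in both directions. Of 12 members in the list of other permeases and channels, 3 were higher and 4 lower in SEF1-VP16, and 2 were higher and 5 lower in WT. That is 58.3% called in each strain, beside 46.4% and 47.9% of all genes, and the lists that follow have the same background. SAKL0A00374g, similar to the cysteine transporter gene YCT1, was higher (2.69 in SEF1-VP16 and 1.99 in WT). SAKL0F00330g, a second MCH4 relative, was lower (-2.47 and -2.76), as were the thiamine transporter relative SAKL0B12584g (THI7, -1.70 and -1.77) and the pantothenate transporter relative SAKL0E15290g (FEN2, -1.64 and -1.78). The other probe of the THI7 relative gave -3.92 in SEF1-VP16 and -4.15 in WT, so the size of its fall depends on the probe. Of 11 members of amino acid and nitrogen use, 1 was higher and 2 lower in SEF1-VP16, and 0 were higher and 4 lower in WT. Oxidoreductases numbered 3 higher and 2 lower of 7 in SEF1-VP16, and 2 higher and 3 lower in WT. Ribosome and RNA genes had 1 higher and 0 lower of 6 in each strain.

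Other large rises had no metabolic list. SAKL0A10648g, with some similarity to YPR013C, a zinc finger protein gene, rose by 2.03 in SEF1-VP16 and 2.35 in WT. The unnamed SAKL0A10582g, at tag 5 of the right end of A, had 0.54, 0.61, 0.52 and 0.62 in SEF1-VP16 where labelled YPGly, against -1.83, -1.74, -1.98 and -1.69 where labelled YPD, and rose by 2.38 in SEF1-VP16 and 2.56 in WT (SE 0.08, limma adjusted p 4.08e-13 and 1.47e-13). SAKL0D15158g (1.94 and 2.12), SAKL0F16654g (2.06 and 2.04) and SAKL0D15268g (1.96 and 1.84) followed, all without a symbol.

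Members called between media in both strains kept their direction. Between media 102 members were called the same way in both, 45 higher and 57 lower, which is 102 of the 113 called in SEF1-VP16 and 102 of the 128 called in WT. No member was called in opposite directions, and 77 were called in neither. The same counts were not made over all genes, of which 46.4% were called in SEF1-VP16 and 47.9% in WT. Shared direction is thus not shown to be particular to the ends. The media comparisons of the strains use different arrays but the same pair of slides, and they share their arrays with the strain comparisons above.

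Neighbouring members moved the same way in several stretches. On the left end of H, all 5 members at tags 2 to 6 were called lower in both strains, namely SAKL0H00176g, SAKL0H00286g, SAKL0H00330g, the ADH3 relative and SAKL0H00396g, similar to the mitochondrial gene YME2. Their changes in WT lay between -4.44 and -0.91. On the right end of F, the 5 members at tags 3 to 7 were called higher in both strains, by 0.66 to 2.04 in WT, from SAKL0F16720g to SAKL0F16632g, similar to the permease gene ESBP6. On the left end of E, 4 members at tags 1 to 4 were lower in WT, with SAKL0E00110g, SAKL0E00154g and the PYD3 relative beside ARN2. Of these, SAKL0E00110g and the PYD3 relative were measured with cross-hybridising probes, so their signal may come from genes at other ends. On the right end of A, the 5 outermost members were higher in SEF1-VP16, where the SRY1 relative and SAKL0A10604g passed in addition to those called in WT. With 59.3% of members called, stretches of like calls have a high background, and they were not tested.

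Near-identical relatives at other ends limit which gene a probe reports. By the array's design, 62 probes may also bind the transcript of a different gene, and 22 of them belong to members, 4.71% of 467 member probes against 0.394% of the probes of other genes. They fall on 11 members, and the partner of every one of the 22 lay at another chromosome end. Fitted changes of 7 pairs were set side by side. SAKL0E00176g, with some similarity to PYD3, the beta-alanine synthase gene known from L. kluyveri, changed by -4.65 in SEF1-VP16 and -4.30 in WT between media, and its partner SAKL0F00132g by -4.07 in WT. In SEF1-VP16 the partner was called lower too, with a probe above background on 1 of 4 arrays labelled YPGly, and its fitted change lay between -5.05 and -3.10 over the alternatives. SAKL0D15400g, related to the sorting receptor gene PEP1, changed by 0.88 and 0.75, and SAKL0E00242g by 0.91 and 0.81. SAKL0E00264g changed by -1.93 and -2.21, and SAKL0C14058g by -2.20 and -2.31. SAKL0B00110g and SAKL0E00110g, the outermost left genes of B and E, stood at -0.53 and -0.58 in SEF1-VP16 and at -0.67 and -0.63 in WT. The other probe of SAKL0B00110g gave -1.67 in SEF1-VP16 and -1.54 in WT. A probe of SAKL0E00110g is also paired with SAKL0C14080g, at the right end of C. In the pair SAKL0F00198g and SAKL0B12716g the changes by the probes used differed more, at -1.36 and -0.70 in SEF1-VP16 and -1.56 and -0.58 in WT. SAKL0C14058g and SAKL0B12716g were measured with probes outside these 62, so in their pairs only the signal of the partner may come from either gene. In the other pairs named here, which gene gave the signal cannot be told apart. This holds for the FET4 pair of the left ends of B and H too. Of the 23 members called between strains, SAKL0F00132g was the one measured with a cross-hybridising probe.

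A second probe gave a partial check of the calls. Members have 2 probes in 233 of 234 cases, and the brighter was used. The other probe had the same sign in 12 of 14 calls between strains where labelled YPGly, in 13 of 13 where labelled YPD, and in 111 of 112 and 124 of 128 between media in SEF1-VP16 and WT. With a change of 1.5-fold asked of it as well, it was 7 of 14 and 9 of 13 between strains. Between media it was then 107 of 112 and 117 of 128. The exceptions in sign between strains were SAKL0B12804g and SAKL0F00132g, both among the 5 dim falls.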

How the data were processed

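Transcripts were measured on 16 single-colour Agilent arrays, 4 cultures for each strain and labelled medium. The authors extracted spot intensity with Agilent Feature Extraction, which subtracted background and removed spatial trends, and the deposited processed signal intensity and median pixel intensity of each spot were read. A deposited table of log2 values, which the authors scaled in GeneSpring to the 75th percentile of each array, was read as well. It differed from log2 of the processed signal by 1 constant per array, to within 1.74e-06.

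Here log2 processed signals were set relative to the 75th percentile of each array, which lay between 10998 and 24035, control spots and 332 outlier values were left out, and the probe with the higher mean over the arrays stood for a gene. The study chose the brighter probe from a fixed list, which was not used here. Genes with all 4 arrays of at least 1 group well above background were fitted together with limma 3.58.1 in R 4.3.3, with 4 group means, on all 16 arrays. P-values were adjusted by Benjamini-Hochberg over 5267 genes, and a call needed an adjusted p of 0.05 or less and a change of 1.5-fold, the study's fold. The fit was tested on data with known answers before use.

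Members, role lists and tests were chosen with earlier results of these data known. Named genes are members called between strains or in the difference between media, the 10 largest called rises and falls with separate groups between media in WT, role list members, SEF1, AFT1 and the carbon use markers. Members named in stretches, pairs and lists beyond these were chosen after their values were seen. Names and similarities came from the study's supplementary tables, which gave 97 of 234 members a symbol, and a gene without one may still have a relative. No genome was used, and no sequence or coordinate is given.

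Alternatives were scaling to the array median, quantile normalization, the deposited table, normexp background correction with an offset of 50 (on median pixel intensity), other probe and filter rules, no fold threshold, array weights, separate fits, the methods' t-test (p of 0.05 or less with 1.5-fold, and Benjamini-Hochberg adjusted), 10 or 20 tags per end, a replicate block and leaving out each array. The number of arrays limits precision.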

Additional observations from a re-analysis of the deposited data

Results flagged for a closer look

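The strain effect differed between labelled media for 7 members, by the limma interaction term (SEF1-VP16 minus WT where labelled YPGly, less the same where labelled YPD). It was 0.97 for the MCH4 relative SAKL0B12738g, 0.95 for the FLR1 relative SAKL0B12628g, 0.92 for the OYE2 relative SAKL0C00396g, 0.83 for the DIM1 relative SAKL0E00660g and 0.81 for the SRY1 relative SAKL0A10626g. It was -1.06 for SAKL0A10538g and -0.92 for SAKL0H26180g.

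Single arrays stood apart from the other 3 of their group in 17 of 312 groups of named members, which is 5.45%. Chance flags about 1 in 20 groups. Of these, 8 were SEF1-VP16 arrays labelled YPGly. The values are log2 relative to the 75th percentile of the array. SEF1-VP16 YPGly replicate 4 was highest for SAKL0C13970g (-7.81) and SAKL0F16742g (-8.24) and lowest for SAKL0C13904g (-2.83). SEF1-VP16 YPGly replicate 3 was lowest for the FET4 relative SAKL0B00308g (1.12) and the GAS1 relative SAKL0H00528g (2.99). SEF1-VP16 YPGly replicate 1 was lowest for SAKL0A00242g (-0.68) and SAKL0G19668g (-0.35), and replicate 2 was lowest for SAKL0H26180g (0.045). WT YPGly replicate 3 was lowest for the RPL8A relative SAKL0H25960g (2.84) and SAKL0D00242g (2.83). WT YPGly replicate 4 was highest for the OYE2 relative SAKL0C00396g (2.72), and WT YPGly replicate 1 was highest for SAKL0G00132g (-6.11).

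Among arrays labelled YPD, SEF1-VP16 YPD replicate 1 was lowest for SAKL0B12804g (-6.01) and the DIM1 relative SAKL0E00660g (-0.88). SEF1-VP16 YPD replicate 2 was highest for the HXK2 relative SAKL0F00462g (3.73), and SEF1-VP16 YPD replicate 3 was highest for SAKL0A00198g (-4.58). WT YPD replicate 1 was highest for the SRY1 relative SAKL0A10626g (1.45).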

How the results depend on the processing

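Counts of members called between media stayed within 1.5 times under every alternative run. Counts between strains were less stable. Where labelled YPGly the 14 calls became 9 with normexp, with the dimmer probe, with the mean of the probes and among genes above background on all 16 arrays, and 24 without a fold threshold. Without 1 array they lay between 8 and 17, with 8 without WT YPGly replicate 3 and 9 without SEF1-VP16 YPGly replicate 3 or 4. Where labelled YPD the 13 calls became 2 by the methods' t-test with Benjamini-Hochberg adjustment, 23 without a fold threshold, 8 with array weights and 7 in separate fits, and lay between 8 and 14 without 1 array, with 8 without WT YPD replicate 3. The 7 calls of the difference became 11 when the set-aside genes were put back, and lay between 4 and 12, with 12 without SEF1-VP16 YPD replicate 4 and 4 without SEF1-VP16 YPGly replicate 2, WT YPGly replicate 2 or WT YPGly replicate 3.

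The median change of members between strains where labelled YPGly became 0.057 with normexp, and where labelled YPD it became -0.13 with array medians, -0.017 with the dimmer probe and -0.033 with 20 tags per end. Between media in SEF1-VP16 it became -0.080 with array medians, 0.061 with normexp and 0.042 among genes above background on all arrays. In WT it became -0.16 with array medians, -0.10 with normexp, 0.10 with the dimmer probe, 0.0052 with the mean of the probes, -0.15 without a filter, 0.034 among genes above background on all arrays, -0.12 with 10 tags and 0.019 with 20 tags. For the difference it became 0.062 with normexp and -0.080 with the dimmer probe. Signed medians of members therefore depend on these settings. Array medians moved the median of all genes in WT by -0.12, and 46 members were then higher and 80 lower, against 57 and 71. The causes of these shifts were not tested. The methods' t-test was not run for the difference between strain effects.

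Of the 5 dim falls where labelled YPGly, all reversed with normexp, SAKL0B12804g to 0.41, SAKL0E00154g to 0.50, SAKL0F00132g to 0.38, SAKL0G00132g to 0.48 and SAKL0G19866g to 0.58, and SAKL0F00132g to 0.31 with the mean of the probes. Of 34 calls between strains or of their difference, 15 were kept in all fits without 1 array and 6 under every alternative, namely SAKL0A10538g where labelled YPD and for the difference, HXT6 and SAKL0D15334g where labelled YPGly, FLR1 where labelled YPD and SRY1 for the difference. An alternative chosen after seeing the data, which asked for a probe above background in a group of the comparison itself, kept 13 and 13 calls between strains and 107 and 126 between media. Replicate numbers were checked for pairing. Same-numbered arrays of different groups had deviations that correlated from -0.55 to 0.765 (median 0.133, 24 pairs), 6 of 16 arrays correlated best with their own number, and a replicate block gave 15, 13, 114, 128 and 8 calls, between strains where labelled YPGly and YPD, between media in SEF1-VP16 and WT, and for the difference.

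Calls that rested on 1 array or a few were these. Where labelled YPD, the YKL070W relative was not called without SEF1-VP16 YPD replicate 4 (-0.58), the SRY1 relative without SEF1-VP16 YPD replicate 2 (-0.58), the YNL134C relative without WT YPD replicate 3 (0.56), SAKL0B12804g without SEF1-VP16 YPD replicate 1 (-0.45) or WT YPD replicate 3 (-0.54), and AFT1 without WT YPD replicate 1 (0.58). Where labelled YPGly, the NOG2 relative was not called without SEF1-VP16 YPGly replicate 4 (0.58) or WT YPGly replicate 1 (0.55), the YNL134C relative without SEF1-VP16 YPGly replicate 2 (0.55) or WT YPGly replicate 2 (0.56), the DIM1 relative without SEF1-VP16 YPGly replicate 4 (0.57) or WT YPGly replicate 3 (0.58), and the RPL8A relative without SEF1-VP16 YPGly replicate 3 (0.62), SEF1-VP16 YPGly replicate 4 (0.54) or WT YPGly replicate 3 (0.43). Lost in 4 to 13 of 16 such fits were SAKL0A10604g, INO1, FET3 and HXT6 where labelled YPD, SAKL0F00132g, SAKL0G19866g, SAKL0G00132g and PXR1 where labelled YPGly, and MCH4, SAKL0H26180g and OYE2 for the difference.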
